A study of Mus musculus with 6 samples.

Results

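Genes with a clear signal on the arrays were compared between mouse embryonic fibroblasts reprogrammed with 5R OCT4 and with wild-type OCT4. A gene was counted as well expressed when its mean deposited intensity over the 6 arrays was above 200, and 8851 of the 18193 genes represented on the array met that limit. At the edge of the limit, Dsn1 had a mean of 200.04 and a log2 difference of 0.04, and Tmem81 a mean of 199.98 and a difference of -0.06. The fibroblasts came from the B6CBAF1/J strain, and the culture medium was that of embryonic stem cells, with serum and the cytokine LIF. All cells received SOX2 and KLF4, and the combinations differed in OCT4, which was wild type in O(WT)SK and the 5R form in O(5R)SK. Each combination was measured once on day 3, once on day 5 and once on day 7, which gave 3 pairs of arrays matched by day. What 5R stands for, how the factors were delivered, which promoter drove them and whether the arrays came from separate cultures could not be learned from the labels, and fibroblasts without factors were not analysed here. Throughout, a difference is the log2(intensity + 16) of O(5R)SK minus that of O(WT)SK on the same day, and a mean difference is its average over the 3 days. That scale understates the differences of dim genes.

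OCT4, encoded by Pou5f1, is a transcription factor of the POU family that binds DNA at an octamer element, often beside SOX2, and is required for pluripotency. Together with SOX2 and KLF4 it can turn fibroblasts into induced pluripotent stem cells. In the course of that conversion fibroblast genes are switched off, epithelial genes come on early, and the cells' own pluripotency network comes on late.

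The cells still read as fibroblasts on all 6 arrays. Of 10 fibroblast markers 8 were well expressed, and the summed intensity of the 10 was 139000 to 150200 with O(WT)SK against 110900 to 130900 with O(5R)SK. On all days 5 of the 10 read lower, among them the brightest, Vim, Col1a2, Fn1 and S100a4, and 2 read higher, Pdgfrb and the dim Lum. Thy1 and Col1a1 each had a mean difference of 0.01. These readings are from the brightest probe set of each gene, and others with a mean above 200 did not always match them. Another probe set gave -0.36 for Col1a2, but 0.15 for Fn1 and -0.23 for Col1a1. Of the 2 others for Vim, 0 read lower on all days. The defining markers of pluripotent cells other than Pou5f1 stayed low, with Nanog at no more than 16.7 and Zfp42 at no more than 15.5 on any array. In bulk RNA, fewer cells of a type and less RNA per cell cannot be told apart. The deposited values had been scaled so that the trimmed mean was 500 on each array, but the bright end differed: the highest value was 34285 on the O(5R)SK day 7 array and 40353 to 47606 on the others. The spiked-in bacterial controls dap and thr had 3'/5' ratios of 3.09 and 3.78 on the O(5R)SK day 3 array, against 2.26 to 2.76 and 2.05 to 2.56 elsewhere, whereas the Gapdh ratio was 0.768 to 0.803 on all arrays.

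Large differences that held on every day lay on the higher side. With O(5R)SK, 33 of the 8851 genes (0.373%) read at least 0.5 higher on all 3 days, which is a ratio of at least about 1.4 on this scale, and 0 read at least 0.5 lower on all 3 days (1 under each of the 3 other scalings). Over all 12621 genes tested, the dimmer ones included, the shares were 0.586% and 0.103%. The 33 genes include the stem cell surface protein Prom1, the enzymes Car2 and Akr1c18, the RNA-binding protein Elavl2 and Pou5f1 itself. In 25 of the 33 both combinations had a mean above 200. Car2, Egr2, Izumo4, Lratd1, Ms4a4b, Shisa3, Stc1 and Vsnl1, the other 8, had an O(WT)SK mean below 200 and passed that limit only through O(5R)SK. At a limit of 0.25 the counts were 115 higher and 48 lower, and at a limit of 1 they were 5 higher (Car2, Myh1, Prom1, Ms4a4d and Stc1) and 0 lower.

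The sign was the same on all 3 days for 1380 genes that read higher (15.6%) and 1785 that read lower (20.2%), against 15.9% and 17.9% of all genes tested. In 356 genes (4.02%) every O(5R)SK array lay above every O(WT)SK array, and in 455 (5.14%) every one lay below; over all genes tested these shares were 4.64% and 4.69%. The median difference of the well-expressed genes was 0.00, -0.01 and -0.04 on the 3 days in turn. That of the mean difference was -0.02, no larger than the SD of the 3 day medians (0.021).

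**Figure D1:**
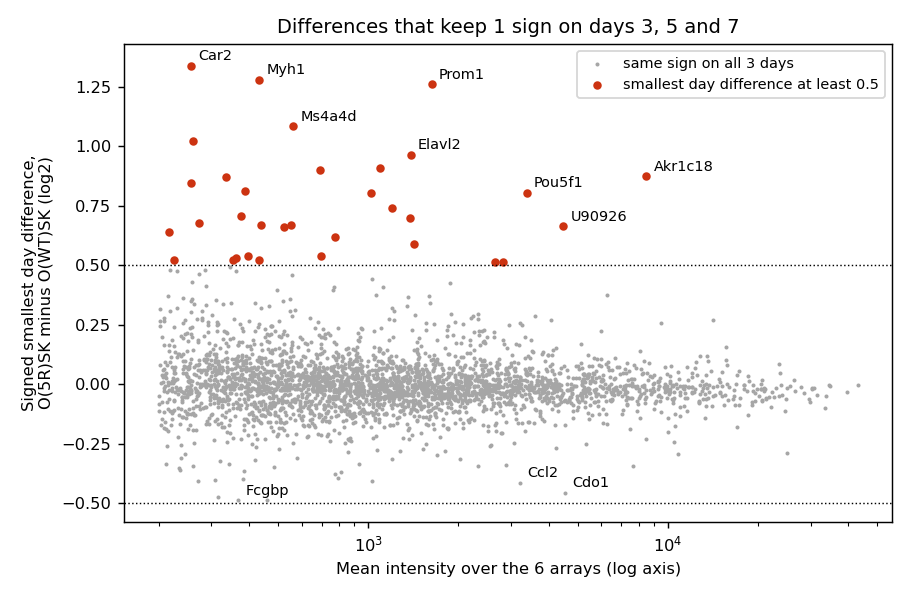
Each point is a well-expressed gene whose difference has the same sign on days 3, 5 and 7. The horizontal axis is its mean intensity over the 6 arrays on a log axis, and the vertical axis is the smallest of its 3 day differences (log2, O(5R)SK minus O(WT)SK) with its sign. Dotted lines mark 0.5 and -0.5: 33 genes lie at or above the upper line and 0 at or below the lower one.

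No difference passed the test as designed. limma, fitted over all 12621 tested genes with factor combination and day as terms, called 0 of them (0%) at a Benjamini-Hochberg adjusted p of 0.05, and its smallest adjusted p for a well-expressed gene was 0.109. At an unadjusted p under 0.05 there were 315 well-expressed genes higher and 256 lower. With 2 residual degrees of freedom the result turns on how limma estimates the spread. When the prior was allowed to follow the intensity and to be robust, limma called 50 well-expressed genes higher (0.565%) and 17 lower (0.192%), against 0.523% and 0.135% of all tested genes. Well-expressed genes had a median residual SD of 0.0942, and the 3770 dimmer tested genes one of 0.2285. Of the 33 stable genes 32 were among those 50 (not Izumo4), an overlap that their selection on the same day differences largely fixes. Because these calls depend on the prior, the genes are described below as reading higher or lower, with both adjusted p-values where they matter, named "constant" and "trended". All p-values rest on how far these few arrays scatter, and that scatter may be technical.

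Pou5f1 had the most even difference of the stable genes. In order of day (3, 5, 7), as for all genes that follow, the O(WT)SK arrays read 2290, 2292 and 2741 and the O(5R)SK arrays 4087, 4042 and 4803. The groups did not overlap, and the mean difference was 0.82 ± 0.01 (SD over 3 days), a ratio of 1.76. limma's adjusted p was 0.211 constant and 0.000581 trended. The other delivered factor with a readable probe set, Klf4, a zinc finger transcription factor, read 3008, 2861 and 3449 with O(WT)SK against 2897, 3027 and 3420 with O(5R)SK. Its groups overlapped and the mean difference was 0.00 (constant adjusted p = 0.984 in limma). Sox2 read between 4.84 and 34.1 and was not tested, and Myc, which was not in either combination, had a mean difference of 0.15 (constant adjusted p = 0.651 in limma). The array does not tell a delivered Pou5f1 transcript from the cell's own here, and its probe set's view of the delivered copy is not known. The form of OCT4 and the level of Pou5f1 therefore cannot be told apart in any difference between the combinations, and the part of that level in the other genes was not tested.

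Several of the stable genes encode surface and adhesion proteins. Prom1 encodes prominin-1 (CD133), a membrane protein of protrusions found on many stem and epithelial cells. It read 738, 861 and 1165 with O(WT)SK against 2012, 2174 and 2816 with O(5R)SK, so that the lowest O(5R)SK array was well above the highest O(WT)SK array. The mean difference was 1.34 ± 0.08 (SD over 3 days), a ratio of 2.53, and Prom1 had the smallest trended adjusted p of limma among the well-expressed genes (3.5e-05; 0.109 constant). Pcdh17, a protocadherin of cell contacts best known in the nervous system, read 299, 697 and 1047 with O(WT)SK against 576, 1409 and 2567 with O(5R)SK. Each O(5R)SK array was about as far above its own day's partner while the groups overlapped across days, with a mean difference of 1.06 ± 0.19. Cdh10, a classical type II cadherin, was steady over time and separate between combinations, at 583, 561 and 594 against 903, 919 and 1094.

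The related membrane proteins Ms4a4d and Ms4a4b, which span the membrane several times and are known from blood cells, also read higher on each day. Ms4a4d was at 50.8, 126 and 607 with O(WT)SK against 126, 492 and 1968 with O(5R)SK. Its mean difference of 1.53 ± 0.40 was the largest of the 33, and it is a low value on day 3 in both combinations. Ms4a4b was at 74.9, 110 and 327 against 150, 358 and 994, with a mean difference of 1.33. These genes have close paralogs and the probe sets could share signal among them, so their identity is uncertain. Laptm5, a lysosomal membrane protein of blood cells, read 332, 429 and 377 with O(WT)SK against 548, 687 and 775 with O(5R)SK, but its other bright probe set had a mean difference of 0.02. The summed intensity of 8 macrophage markers was 9438, 5395 and 3863 for O(WT)SK against 8976, 4789 and 3284 for O(5R)SK. Lyz2 made up most of that sum. Without it the values were 3144, 2094 and 1692 for O(WT)SK against 3152, 1781 and 1410 for O(5R)SK. Of the 8 markers 2 read lower on all days and 0 higher, against 17.9% and 15.9% of all genes tested. So few markers cannot be set apart from those shares.

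The enzymes gave some of the steadiest values. Car2 encodes carbonic anhydrase 2, which interconverts carbon dioxide and bicarbonate. It was at 126, 128 and 142 with O(WT)SK against 342, 366 and 432 with O(5R)SK, so that the lowest O(5R)SK array was above all O(WT)SK arrays. The mean difference was 1.42 ± 0.08, a ratio of 2.67, with limma's adjusted p at 0.109 constant and 0.000808 trended. Akr1c18, an aldo-keto reductase that inactivates progesterone, was the brightest of the 33 genes, with 4174, 5885 and 6672 against 9015, 12880 and 12239. Its lowest O(5R)SK array lay above its highest O(WT)SK array, and the mean difference was 1.04 ± 0.14. Ero1b, an oxidase that supports disulfide formation in the endoplasmic reticulum, had a mean difference of 0.84.

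Secreted proteins formed another group. Stc1, the glycoprotein hormone stanniocalcin-1, read 128, 202 and 137 with O(WT)SK against 287, 428 and 379 with O(5R)SK, without overlap, and its mean difference was 1.15 ± 0.18. Defb1, an antimicrobial beta-defensin of epithelia, read 197, 489 and 673 against 382, 964 and 1451, close to 1 log2 unit on each day with a mean difference of 0.98 ± 0.10. Pmch, the precursor of melanin-concentrating hormone, read lower on each later day, at 1497, 627 and 317 with O(WT)SK against 2880, 1346 and 541 with O(5R)SK, and its mean difference was 0.92 ± 0.17. Scg5, a chaperone of a prohormone convertase, had a mean difference of 0.57, the WNT antagonist Sfrp4 0.62, and the guidance cue Sema3e 0.71.

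Regulators of transcription and RNA were also present. Elavl2, a neuronal and germ cell RNA-binding protein, read 849, 728 and 661 with O(WT)SK against 1671, 2114 and 2293 with O(5R)SK. The combinations were apart on all arrays, and the mean difference was 1.42 ± 0.41. L1td1, an RNA-binding protein of pluripotent cells, read 478, 585 and 902 against 847, 1192 and 2119, with a mean difference of 1.01 ± 0.21. Maf, a basic leucine zipper transcription factor, read 270, 231 and 286 against 486, 546 and 517, again with no overlap, and its mean difference was 0.94 ± 0.22. The orphan nuclear receptor Nr2f1 had a mean difference of 0.78, the corepressor Runx1t1 0.76, and the zinc finger factor Egr2 1.08, whose day differences varied by a factor of 2.49 between the smallest and the largest.

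Structural genes complete the account. Myh1, a fast myosin heavy chain of skeletal muscle, read 83.2, 184 and 413 with O(WT)SK against 234, 664 and 1026 with O(5R)SK, with a mean difference of 1.46 ± 0.27. Myosin heavy chain genes are near-identical in places, so this assignment is uncertain, and of the 5 skeletal muscle markers Myod1, Myog and Myh3 read at most 51.1 on any array, Actc1 69.6 to 125 and Des, which other mesenchymal cells also express, 1157 to 1758. Of these 5, 1 read higher and 0 lower on all days, and their part in the Myh1 values was not tested. Nefl, the light neurofilament subunit, read 627, 1088 and 1303 against 1027, 1866 and 2367, with a mean difference of 0.77 ± 0.08. Gas2l3, which links actin and microtubules, had a mean difference of 0.83 and Vsnl1, a neuronal calcium sensor, also 0.83. Lratd1 had a mean difference of 1.10 and its intensity was 127, 182 and 158 against 241, 405 and 430. The remaining stable genes, Izumo4, Rgs7bp, Shisa3, Tmem35a, U90926 and Vat1l, had mean differences from 0.58 (Izumo4) to 1.24 (Shisa3). The genes beyond the 15 with the largest smallest-day differences were named after their values had been seen.

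**Figure D2:**
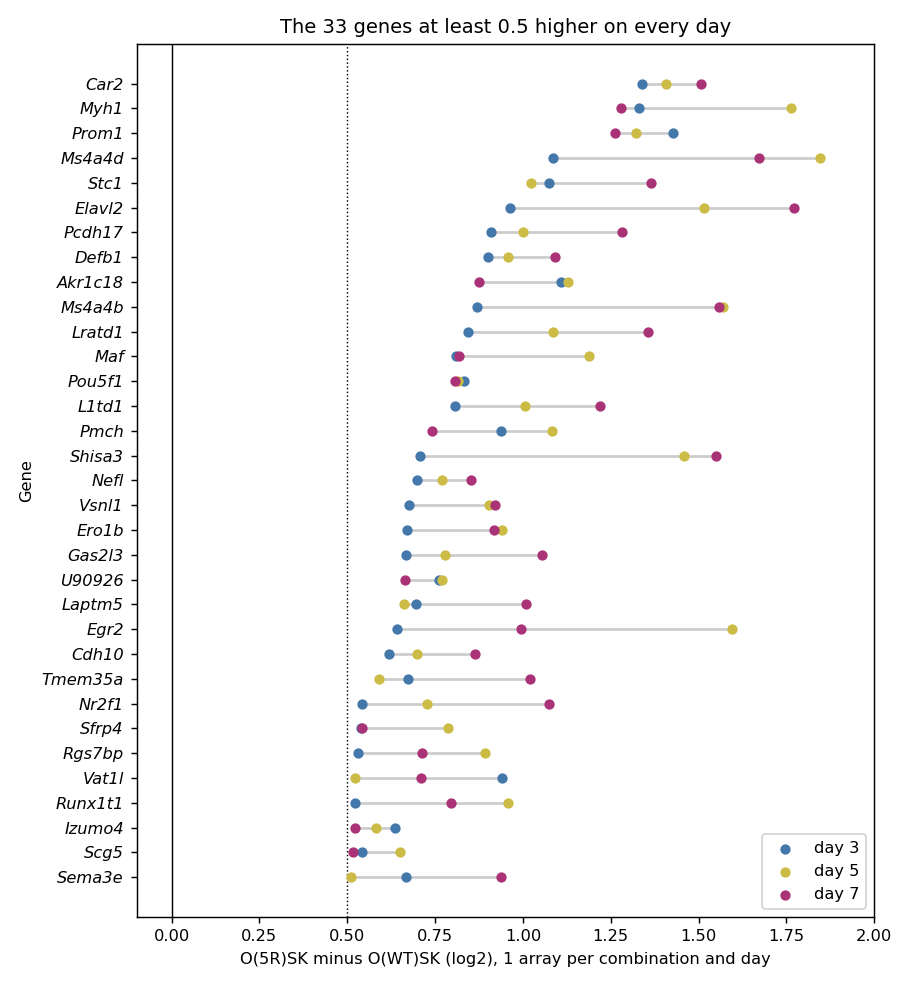
The 33 well-expressed genes with a difference of at least 0.5 on every day, each shown with its 3 day differences (log2, O(5R)SK minus O(WT)SK, 1 array per combination and day). The vertical dotted line marks 0.5, and all points lie at or to the right of it; the mean differences run from 0.57 for Scg5 to 1.53 for Ms4a4d.

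**Figure D3:**
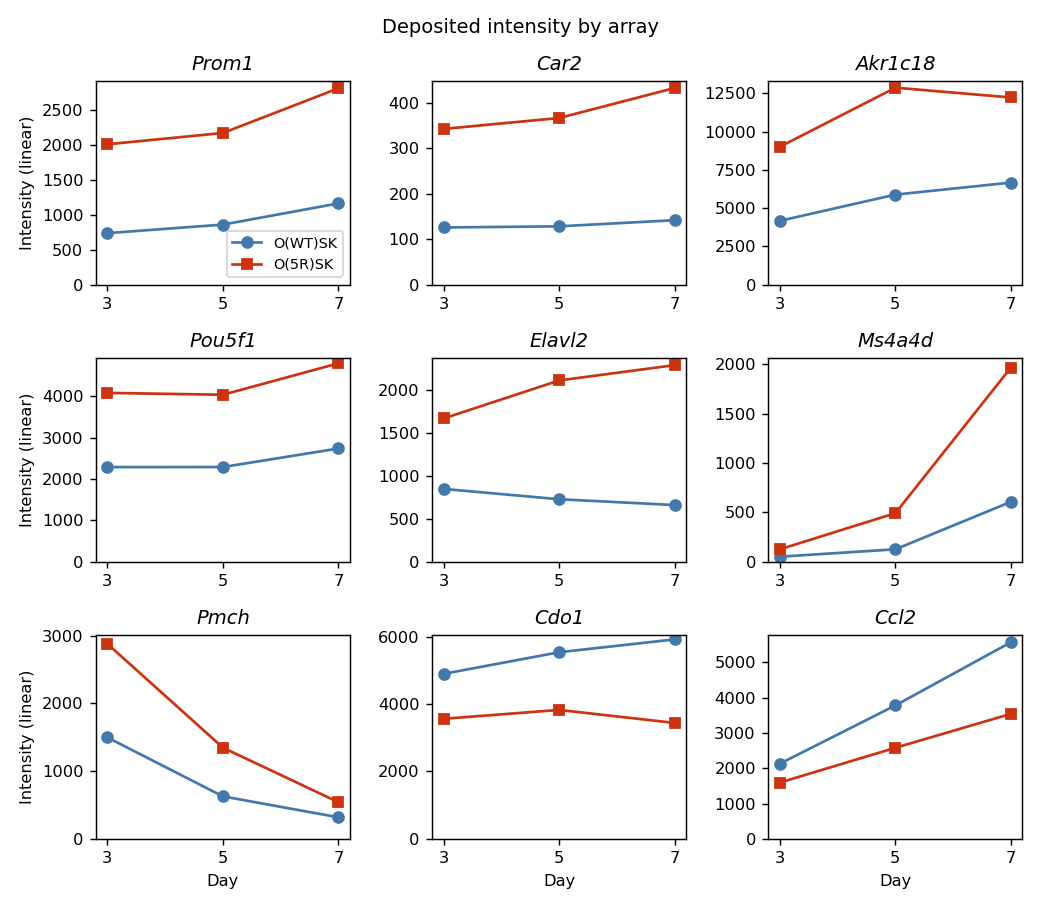
Deposited intensity of selected genes on each array by day, with 1 point per array and a line joining the days of a combination. In Car2, Prom1 and Pou5f1 the O(5R)SK arrays lie above all O(WT)SK arrays, and in Ccl2 and Cdo1 the O(5R)SK array is the lower of each day's pair.

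The 33 genes were chosen for a difference on every day, so how even it was is only described: the largest day difference was at most 2 times the smallest in 31 of them, and more in Egr2 (2.49) and Shisa3 (2.19). In 18 of the 33 every O(5R)SK array lay above every O(WT)SK array, against 4.02% of all well-expressed genes. The choice of the 33 by their day differences itself raises that share. The median difference of the 33 was 0.76, 0.96 and 0.99 on the 3 days in turn. In 24 of them the difference was larger on day 7 than on day 3, against 44.8% of all well-expressed genes. That comparison cannot show a growing difference, because the 33 were selected as high on these same values. The differences of all well-expressed genes also spread more widely on day 7 (SD 0.28) than on day 3 (SD 0.18). At least 2-fold higher were 9, 21 and 65 genes on days 3, 5 and 7. Of the 76 genes concerned, 62 were so on 1 day, 9 on 2 days and 5 on all 3. At least 2-fold lower were 2, 3 and 4 genes, each of the 9 on 1 day. Across the 8851 genes the day differences, which share no array, correlated at r = 0.251 for day 3 with day 5, 0.166 for day 3 with day 7, and 0.422 for day 5 with day 7. Among the 3770 dimmer tested genes the values were 0.093, 0.059 and 0.131. These correlations run over genes, which are not independent, and describe only how far a difference recurred.

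Other probe sets of the same gene gave a second reading from the same RNA. Of the 33 stable genes, 10 had another probe set with a mean above 200, and in 8 of them every such probe set gave the same sign on all days; Laptm5 and Sema3e were the exceptions. The other Elavl2 probe sets gave 1.44 and 1.01, those of Runx1t1 1.21 and 0.86, and that of Pcdh17 1.17, beside 1.42, 0.76 and 1.06 in the chosen ones. For Defb1 it gave 1.03 and for Shisa3 1.41, while for Nefl it gave 0.53 and for Gas2l3 0.47, lower than the chosen set. The other Sema3e probe sets gave 0.32, 0.42 and 0.34, beside 0.71 in the chosen one. Agreement was less common at smaller differences. It was found for 20 of 36 higher and 10 of 16 lower genes with every day at 0.25 or more, and for 90 of 581 higher (15.5%) and 165 of 680 lower genes (24.3%) with the same sign but a smallest day difference under 0.25. Across the genes with several bright probe sets, 3473 in all, the chosen and the other mean differences correlated at r = 0.276.

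**Figure D4:**
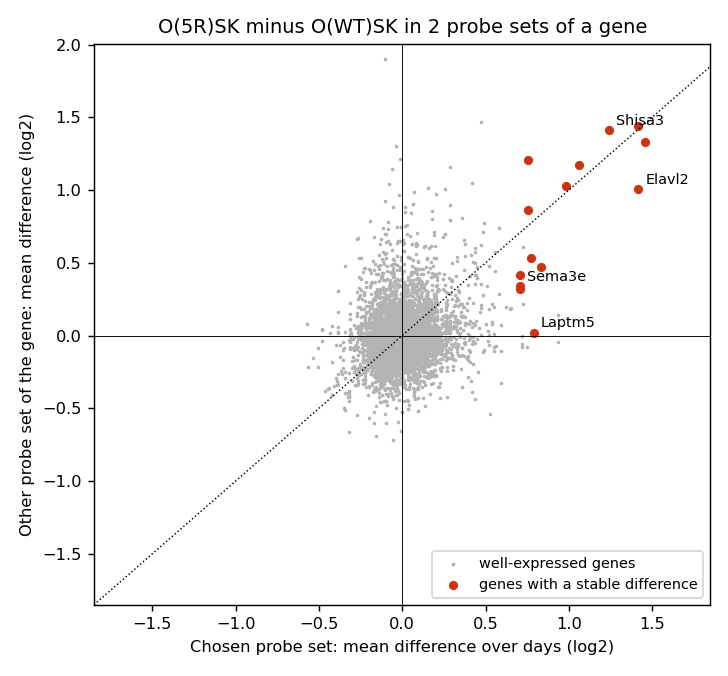
Each point is a pair of probe sets of a well-expressed gene, the chosen one on the horizontal axis and another with a mean intensity above 200 on the vertical axis, both as mean difference over the days (log2). The dotted diagonal is equality; of the stable genes, Shisa3 lies above it (1.41 against 1.24) and Laptm5 near 0 on the vertical axis (0.02 against 0.79).

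On the lower side, no well-expressed gene kept a difference of 0.5 on every day, and the largest smallest-day difference was 0.489, for Fcgbp, a mucin-like IgG Fc-binding protein. Cdo1, the dioxygenase that starts cysteine breakdown, read 4897, 5538 and 5919 with O(WT)SK against 3562, 3825 and 3439 with O(5R)SK. Every O(5R)SK array lay below every O(WT)SK array, and the mean difference was -0.59 ± 0.17, with limma's adjusted p at 0.308 constant and 0.00756 trended. Ccl2, a chemokine that draws monocytes, read 2131, 3782 and 5573 against 1595, 2581 and 3542, lower by day but overlapping across days, with a mean difference of -0.54 ± 0.12. Its neighbour in function, the chemokine Ccl7, read 2535, 2563 and 2856 against 1992, 1911 and 2082, with a mean difference of -0.41. In limma Ccl2 had an adjusted p of 0.297 constant and 0.00756 trended, and Ccl7 one of 0.351 constant and 0.0286 trended.

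The other 12 lower genes with the largest smallest-day differences had mean differences of -0.40 (Cyb5d2) to -0.57 (Igsf11 and Slurp1) and limma's constant adjusted p of 0.287 to 0.413. Of these 12, Cyb5d2 and Slurp1 had an O(5R)SK mean below 200 and passed the intensity limit only through O(WT)SK. They include Ndufb1, a subunit of respiratory complex I (-0.51), Det1, part of a ubiquitin ligase (-0.57), the soluble guanylate cyclase subunit Gucy1a2 (-0.52), the chondroitin polymerizing factor Chpf (-0.48), the ephrin receptor Epha3 (-0.57), and Clic5, Ccdc186 and Trabd2b. In Abcb1a, the drug efflux pump P-glycoprotein, the chosen probe set gave -0.48 and the other bright one 0.04. In Ccdc186 the other gave 0.08. In Epha3 and Trabd2b it gave the same sign but smaller values, -0.21 and -0.15 beside -0.57 and -0.53 in the chosen ones. Among the 17 genes called lower by the trended fit, Aqp5, a water channel, had a mean difference of -0.57, Wnt4, a signalling ligand, -0.45, Col6a3, a collagen VI chain, -0.42, and Prelp, a matrix proteoglycan, -0.39; these 4 and Ccl7 were named after their values had been seen.

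Gene lists chosen with earlier results known were described by counts and medians beside those of all well-expressed genes, of which 15.6% read higher and 20.2% lower on all days. Of 50 pluripotency genes 20 were well expressed; 5 read higher and 2 lower on all days, with a median mean difference of 0.05. Pou5f1 and L1td1 were the 2 stable ones, whereas Cd9 was at -0.31 and Klf2 at -0.19. Of 11 well-expressed epithelial genes 4 read higher and 0 lower, with a median of 0.10. Beside Prom1 the adhesion protein E-cadherin, Cdh1, read 102, 170 and 252 with O(WT)SK against 133, 256 and 665 with O(5R)SK. Cdh1 had an O(WT)SK mean below 200 and passed the intensity limit only through O(5R)SK. In limma its adjusted p was 0.466 constant and 0.15 trended. Among 5 epithelial cell type markers, Cdh1 was the only 1 higher on all days and 0 were lower. Epcam, Krt8, Krt18 and Cldn4 were mixed in sign. Of the 11, 4 had a negative mean difference, with the keratin Krt19 at -0.20 and the desmosomal protein Pkp1 at -0.07. Without day 7 the epithelial median was 0.02 and the pluripotency median 0.01. The 28 mesenchymal genes had a median of 0.00, with 5 higher and 8 lower.

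Of 29 collagens and their modifying enzymes 13 read lower and 5 higher on all days, with a median of -0.10. Col1a2 was at -0.44 and Col12a1 at 0.41. The other bright probe set of Col1a2 gave -0.36, but that of Col12a1 gave -0.11, opposite in sign to the chosen one. Of 39 fibroblast matrix genes 17 read lower and 4 higher (median -0.11), Timp3 at -0.34 and Fbn2 at 0.51. Among 33 contractile genes 12 read lower and 2 higher (median -0.09), and among 66 respiratory chain genes 20 and 5 (median -0.07). Without day 7 these 4 medians were closer to 0, at -0.05, -0.05, -0.05 and -0.02. For cell cycle genes the counts were 13 higher and 6 lower both among 49 S phase and among 54 mitosis genes (medians 0.04 and 0.03). The S phase median was 0.0002 with the mean of the probe sets of each gene, and the mitosis median 0.0006 without day 7. Of 37 chromatin genes 9 read higher and 3 lower (median 0.06, and 0.02 without day 7). Of 18 macrophage genes 8 read lower and 2 higher (median -0.16), Laptm5 being at 0.79 and C1qc at -0.45. C1qc had an O(5R)SK mean below 200 and passed the intensity limit only through O(WT)SK.

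Of 15 chemokine and acute phase genes 6 read higher and 4 lower (median -0.03). The interleukin 1 antagonist Il1rn was at 0.56 and the neutrophil chemokine Cxcl1 at 0.44, opposite in sign to Ccl2 and Ccl7. Both Il1rn and Cxcl1 had an O(WT)SK mean below 200 and passed the intensity limit only through O(5R)SK. Their differences on day 5 were 0.21 and 0.12. Of 33 imprinted and growth factor genes 7 read higher and 8 lower (median -0.02), with the cytokine feedback inhibitor Socs3 at 0.48 and the receptor Met at 0.37. Of the 2 other bright Socs3 probe sets, 0 read higher on all days. Of 35 TGF-beta and BMP genes 7 read higher and 9 lower (median 0.00), with the target Id2 at 0.29 (-0.08 on day 3) and the ligand Bmp4 at -0.28. Among 21 p53 targets 3 read higher and 4 lower (median -0.02), among 30 glycolysis and hypoxia genes 7 and 6 (median -0.02), and Stc1 is a member of the latter. Medians below that of all genes were found for 44 stress genes (-0.08, 4 higher and 13 lower), 29 cholesterol synthesis genes (-0.07, 3 and 9), 14 interferon response genes (-0.05, 0 and 3) and 9 adipocyte genes (-0.12, 0 and 2). With the mean of the probe sets the stress, cholesterol and adipocyte medians were 0.0036, -0.0078 and -0.0008, and without day 7 the stress and adipocyte medians were -0.03 and -0.02. The interferon median was -0.01 without day 3. The small medians of the mesenchymal, chemokine, growth factor, TGF-beta, p53 and glycolysis lists each took the other sign under at least 1 other setting. Of the cell cycle genes, Smc2, a condensin subunit, was at 0.45 and was called by the trended fit only (limma's adjusted p 0.385 constant and 0.0472 trended).

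Brightness moved with these medians. On day 7 the median difference was 0.03 for genes of mean intensity 200 to 500, -0.03 for 500 to 2000, -0.08 for 2000 to 8000 and -0.18 above 8000, and after quantile normalization it was between -0.04 and -0.06 in all these ranges. Quantile normalization moved the median of the 44 ribosomal protein genes from -0.12 to 0.00 and turned 3 higher and 8 lower on all days into 10 and 5, whereas cyclic loess gave -0.05 with 4 higher and 16 lower. The fibroblast matrix median went from -0.11 to -0.06, the contractile one from -0.09 to -0.05, and the collagen one from -0.10 to -0.08. The macrophage median went from -0.16 to -0.19. Under cyclic loess the matrix, contractile and collagen medians were -0.06, -0.06 and -0.07.

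**Figure D5:**
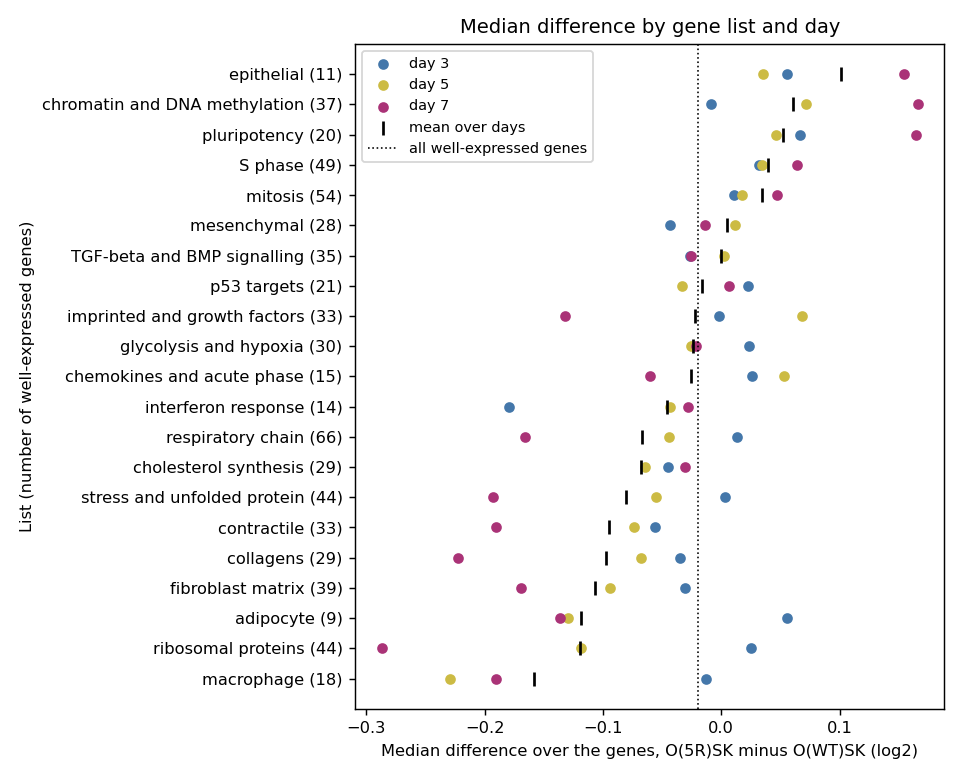
For each gene list, with its number of well-expressed genes in brackets, the median difference over the genes is shown by points for days 3, 5 and 7 and by a bar for the mean over days (log2, O(5R)SK minus O(WT)SK), and the dotted line is the median of all well-expressed genes. Ribosomal protein genes have the lowest median on day 7 (-0.29), and pluripotency, epithelial and chromatin genes have medians above 0 on that day.

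Promoters of the stable genes were searched for the octamer that OCT4 binds. RefSeq (GRCm38.p6) windows of 250 bases before to 50 after the start existed for 25 of the 33 genes. The octamer ATGCAAAT, searched on both strands, was found in 1 of them (4%), against 1.47% of 7268 well-expressed genes and 1.97% of all 27025 genes with a window. The SOX motif CATTGT, also searched on both strands, was found in 2 (8%), against 8.68% and 14.3%. The only octamer match was in Egr2, in 3 of its 5 windows, and these 3 overlap. The window chr10:67537619-67537918 on the plus strand is shown with the octamer in capitals, beginning 127 bases before the start.
Egr2: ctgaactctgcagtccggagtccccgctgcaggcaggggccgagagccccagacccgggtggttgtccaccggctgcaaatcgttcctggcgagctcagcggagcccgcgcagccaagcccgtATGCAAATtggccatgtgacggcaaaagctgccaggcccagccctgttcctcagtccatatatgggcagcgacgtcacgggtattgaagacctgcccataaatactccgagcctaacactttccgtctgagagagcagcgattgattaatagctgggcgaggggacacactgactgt
A match describes these letters only, and no match says nothing about binding elsewhere.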

How the data were processed

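The values were analysed from the authors' series table of 6 Affymetrix arrays, 1 per factor combination and day (3, 5 and 7), grouped by the labels' protocol field. For each probe set the authors deposited a linear intensity, for which the submitters' processing notes name affy. Its version, the summary method and the background step could not be learned from the labels, and the scale of the files shows a trimmed mean of 500 per array. Of 45101 probe sets 34945 name 1 gene in the platform annotation, 932 name several and 9160 none, and 64 are controls. For 34741 of them a RefSeq entry (GRCm38.p6) was found, with 0 symbols changed. The brightest probe set of each gene was used, on log2(intensity + 16). limma 3.58.1 in R 4.3.3 fitted factor combination and day as terms to 12621 genes with a mean above the 40th percentile, and adjusted p over all of them by Benjamini-Hochberg at 0.05. Simulated data were used to test the code. Differences that hold on every day were counted without a test. Figures used Python with pandas and matplotlib. The genes, lists, limits and named-gene rule were chosen with earlier results of these data known. The rule named the 15 genes per direction with the largest smallest-day difference, the 4 factors and up to 4 members of each list. Alternatives covered scaling, pseudocount, probe sets, intensity limits, the prior, the filter, the day term and each day left out.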

Additional observations from a re-analysis of the deposited data

How the results depend on the processing

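Counts of stable genes moved with the limits. The higher count of 33 became 18 at intensities above 500, 115 at a limit of 0.25 and 5 at a limit of 1, and was 44 to 85 when a day was left out. The lower count of 0 became 1 with a common median, 1 with quantile normalization, 1 with cyclic loess, 2 above intensity 100, 48 at a limit of 0.25, and 4 without day 5, 10 without day 7 and 16 without day 3. limma's higher calls went from 0 to 2 with a pseudocount of 64, 50 with a trended robust prior and 31 when only the well-expressed genes were fitted; lower calls went from 0 to 17 with that prior and 1 (Det1) in the last. The median difference kept its sign. Of the 33 genes, 20 were stable under all 5 other settings of scaling, pseudocount and probe sets, and Izumo4 under 1. Arrays were paired by day, so the day was the replicate block of the fit, and with no replicate block limma called 0 higher and 0 lower. The cause of these moves was not tested. Klf4 read -0.0052 with a common median, and Dgat2 read -0.0066 with quantile normalization. With a day left out Klf4 ranged from -0.0332 to 0.0344, Dgat2 from -0.134 to 0.0996, Pkp1 from -0.13 to 0.0243, Ddx58 from -0.1022 to 0.257, and Hspa1b from -0.0055 to 0.3386. With the mean of the probe sets Zeb1 was at 0.0465, Dut -0.0056, Cenpe 0.0342, Rpl41 0.0027, Pfkfb3 -0.0771, Xaf1 -0.0024 and Lyz1 0.0607. Few arrays, with 1 per day and combination, limit the precision.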
